A study of Mus musculus with 2 samples.

Results

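The 7 genes of the FGF response were followed in the germ cells of the fetal mouse testis: the FGF receptor gene Fgfr1, the ETS transcription factor genes Etv4 and Etv5, the Sprouty genes Spry1, Spry2 and Spry4, and the ERK phosphatase gene Dusp6. They were chosen by name, as the rows that carry these symbols, and all 7 are among the 17244 genes that at least 1 of the count tables lists. The cells were male germ cells of embryonic stages E13.5 and E12.5 (days of gestation), isolated by FACS for a green fluorescent reporter of Oct4 (Pou5f1) from embryos of the outbred strain CD1, which both groups share, and no other allele or treatment is named. Each stage is 1 droplet library made with 10x v2 chemistry, which counts molecules at their 3′ ends by unique molecular identifier (UMI). The labels do not say how many embryos were pooled.

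FGFs are secreted ligands that bind receptor tyrosine kinases together with heparan sulphate and signal through RAS and the kinases RAF, MEK and ERK. Etv4 and Etv5 are induced by this signal in many embryonic tissues and are widely read as its transcriptional output, while Sprouty proteins and the phosphatase DUSP6 are induced by it and dampen it. In the fetal testis, Sertoli cells secrete FGF9, which acts on germ cells, favours expression of pluripotency genes and opposes entry into meiosis.

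The tables hold 2992 barcodes and 59842242 UMIs at E13.5, and 2847 barcodes and 60383440 UMIs at E12.5, and 24 barcode sequences occur in both. Germ-like cells, named from germ markers such as Ddx4, Dazl and Dppa3 after clustering, numbered 2552 at E13.5 and 2501 at E12.5, with a median of 21842.5 UMIs at E13.5 and 23481 UMIs at E12.5. With a single library a stage no statistical test was possible. A difference between stages cannot be told apart from one between libraries, and every interval below is a 95% interval of counting error alone. In germ-like cells the summed level of Sertoli markers was 14.9 CPM (UMIs per 1000000 UMIs of these cells) at E13.5 and 12.6 CPM at E12.5, that of endothelial markers 37.2 CPM at E13.5 and 102 CPM at E12.5, and that of red cell markers 23.1 CPM at E13.5 and 0.285 CPM at E12.5. The median mitochondrial share was 4.68% at E13.5 and 3.86% at E12.5. The part of these differences in the results below was not tested. Levels are compared between stages and not between genes.

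Every FGF response gene had a lower level at E13.5 than at E12.5, and the differences were between 1.13-fold and 1.94-fold. Fgfr1, the receptor, had 1125 UMIs or 19.2 CPM at E13.5 (18.1 to 20.4), against 1945 UMIs or 32.6 CPM at E12.5 (31.1 to 34.1). It was 1.70-fold lower at E13.5 (1.58 to 1.83). Etv4 had 1977 UMIs or 33.7 CPM at E13.5 (32.3 to 35.3), against 3909 UMIs or 65.5 CPM at E12.5 (63.4 to 67.5). This was the widest gap of the 7, 1.94-fold lower at E13.5 (1.84 to 2.05). Its close paralog Etv5 had 2895 UMIs or 49.4 CPM at E13.5 (47.6 to 51.2), against 4531 UMIs or 75.9 CPM at E12.5 (73.7 to 78.1), 1.54-fold lower at E13.5 (1.47 to 1.61). For these 3 genes the counting intervals of the stages lay well apart.

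The feedback inhibitors were less alike. Spry1 had 364 UMIs or 6.21 CPM at E13.5 (5.59 to 6.88), against 677 UMIs or 11.3 CPM at E12.5 (10.5 to 12.2), 1.83-fold lower at E13.5 (1.60 to 2.08). Dusp6, the cytoplasmic phosphatase that switches off ERK, had 792 UMIs at E13.5 (an interval of 12.6 to 14.5 CPM), against 1180 UMIs at E12.5 (18.6 to 20.9 CPM), 1.46-fold lower at E13.5 (1.34 to 1.60). The other Sprouty genes stayed under 5 CPM in both libraries and differed less. Spry2 had 214 UMIs or 3.65 CPM at E13.5 (3.18 to 4.17), against 247 UMIs or 4.14 CPM at E12.5 (3.64 to 4.69), and the interval of its fold held 1 (1.13-fold lower, 0.939 to 1.37). Spry4 had 160 UMIs or 2.73 CPM at E13.5 (2.32 to 3.19), against 212 UMIs or 3.55 CPM at E12.5 (3.09 to 4.06), 1.30-fold lower at E13.5 (1.05 to 1.61).

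5 of the 7 genes reached 10 CPM in at least 1 library. Of these, 4 were at least 1.5-fold lower at E13.5, against 9.91% of all 7308 genes at that level, and none was at least 1.5-fold higher, against 8.55%. Etv5 lay just inside that limit and Dusp6 just outside it. Spry1 reached 10 CPM only at E12.5, so its place among the 5 and the 4 rests on the stage where it was higher. On the log2 scale, the ratio of E13.5 to E12.5 had a median of -0.76 for these 5 and -0.62 for all 7, against -0.022 over all genes. Among the 7308 genes, 4.65% had a ratio below that of Etv4, 5.32% below Spry1, 6.54% below Fgfr1, 9.10% below Etv5 and 11.2% below Dusp6. Etv5 was under 1.5-fold, at a log2 ratio of -0.58, when mitochondrial genes, ribosomal protein genes and the top 50 genes by level were left out of the total.

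**Figure D1:**
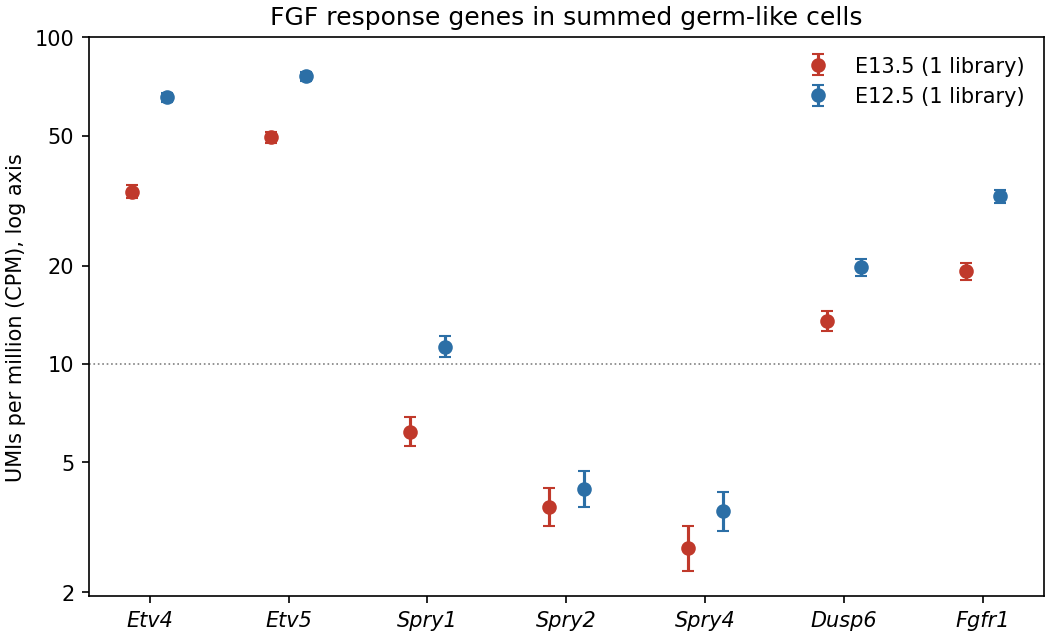
Level of each FGF response gene in summed germ-like cells, in CPM on a log axis, with E13.5 left of E12.5; bars are exact Poisson 95% intervals of counting error and the dotted line marks 10 CPM. All 7 points at E13.5 lie below those at E12.5, and the intervals of Spry2 and Spry4 overlap between stages.

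The promoters of members that were lower together are shown because ETS factors such as Etv4 and Etv5 bind a core of GGAA. RefSeq (GRCm38.p6) gave windows for 4 of the 7 genes, and those of Etv5, Spry1 and Dusp6 follow, each 250 bases before the start site and written 5′ to 3′ on the gene's strand. Capitals mark a match to the longer ETS motifs CCGGAA or AGGAAG, on either strand. The core GGAA alone is not marked, and it also stands in lower case in the windows of Spry1 and Dusp6.
Etv5, chr16:22439571-22439820, minus strand: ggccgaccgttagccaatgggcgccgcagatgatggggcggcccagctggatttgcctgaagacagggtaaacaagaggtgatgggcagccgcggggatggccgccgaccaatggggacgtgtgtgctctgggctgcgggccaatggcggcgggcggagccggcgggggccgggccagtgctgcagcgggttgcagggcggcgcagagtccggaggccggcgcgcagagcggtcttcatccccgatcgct
Spry1, chr3:37639697-37639946, plus strand: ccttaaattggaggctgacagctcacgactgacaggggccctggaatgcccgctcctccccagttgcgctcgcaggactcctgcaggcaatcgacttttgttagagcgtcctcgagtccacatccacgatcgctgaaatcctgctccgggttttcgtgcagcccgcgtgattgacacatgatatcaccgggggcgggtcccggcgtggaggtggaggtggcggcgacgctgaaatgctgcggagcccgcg
Dusp6, chr10:99262981-99263230, plus strand: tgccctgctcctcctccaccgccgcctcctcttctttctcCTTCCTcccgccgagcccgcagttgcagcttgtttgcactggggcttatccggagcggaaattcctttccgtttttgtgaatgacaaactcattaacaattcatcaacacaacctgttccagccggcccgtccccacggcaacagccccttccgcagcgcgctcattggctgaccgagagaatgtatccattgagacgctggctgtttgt
In these windows the single match to the longer motifs was AGGAAG, read on the other strand, in Dusp6. Of 32851 windows of the same length over all genes, 29.5% held AGGAAG and 12% CCGGAA. A second start site of Etv5 and the window of Spry2 held neither of the longer motifs, though both held the core GGAA.

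The genes lie on 7 different chromosomes. In GRCm38, Etv4 lies on chromosome 11 (101769742 to 101785371, minus strand), Etv5 on chromosome 16 (22381309 to 22439719, minus strand), Spry1 on chromosome 3 (37639947 to 37644598, plus strand) and Spry2 on chromosome 14 (105891947 to 105896819, minus strand). Spry4 lies on chromosome 18 (38586247 to 38601415, minus strand), Dusp6 on chromosome 10 (99263231 to 99267489, plus strand) and Fgfr1 on chromosome 8 (25513654 to 25575718, plus strand). GENCODE lists each as a protein-coding gene, and none overlaps another gene on its own strand, while Spry1, Spry4 and Fgfr1 have short or non-coding genes on the other strand.

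Each of the 7 genes was seen in a smaller share of cells at E13.5, although for Spry2 the direction turned at a depth of 5000 UMIs, with 1.77% at E13.5 and 1.53% at E12.5. How many of all genes were seen in fewer cells at E13.5 was not computed, so this count describes the members alone. At an equal depth of 14500 UMIs drawn from every cell, there were 2323 cells at E13.5 (229 shallower cells left out) and 2326 at E12.5 (175 left out). Etv5 was seen in 49.6% of cells at E13.5 (47.5 to 51.6%) and 67.5% at E12.5 (65.5 to 69.4%), and Etv4 in 38.6% at E13.5 (36.6 to 40.6%) and 60.1% at E12.5 (58.0 to 62.1%). Fgfr1 was seen in 22.4% at E13.5 (20.7 to 24.1%) and 37.4% at E12.5 (35.4 to 39.4%). For the receptor and both ETS factors the intervals of the stages did not meet, and nor did those of Dusp6 and Spry1 below.

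Among the inhibitors, Dusp6 was seen in 17.4% of cells at E13.5 (15.9 to 19.0%) and 25.7% at E12.5 (23.9 to 27.5%), and Spry1 in 7.79% at E13.5 (6.73 to 8.96%) and 15.5% at E12.5 (14.1 to 17.1%). Spry2 was seen in 4.65% at E13.5 (3.83 to 5.59%) and 5.63% at E12.5 (4.73 to 6.65%), and Spry4 in 3.83% at E13.5 (3.09 to 4.69%) and 4.39% at E12.5 (3.59 to 5.30%), so that the intervals of these last Sprouty genes overlapped. Without thinning the shares were higher throughout, for Etv5 63.3% at E13.5 and 81.8% at E12.5, for Etv4 51.1% at E13.5 and 74.3% at E12.5, and for Fgfr1 32.4% at E13.5 and 52.0% at E12.5. For the inhibitors they were 25.8% at E13.5 and 36.5% at E12.5 for Dusp6, 12.9% at E13.5 and 23.4% at E12.5 for Spry1, 7.48% at E13.5 and 8.84% at E12.5 for Spry2, and 5.80% at E13.5 and 7.96% at E12.5 for Spry4. No cell type without these transcripts was captured in number, so the part of free RNA in the low shares was not tested.

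Cells with several UMIs of Etv4 were scarcer at E13.5. For Etv4, 1 UMI was seen in 30% of cells at E13.5 and 33.7% at E12.5, 2 UMIs in 6.89% at E13.5 and 18.1% at E12.5, and 3 or more in 1.68% at E13.5 and 8.21% at E12.5. For Etv5, 3 or more UMIs were seen in 4.09% at E13.5 and 9.11% at E12.5. The median cell carried transcripts of 1 of the 7 genes at E13.5 and of 2 at E12.5. Cells with none of the 7 were 440 at E13.5 (18.9%) and 111 at E12.5 (4.77%).

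**Figure D2:**
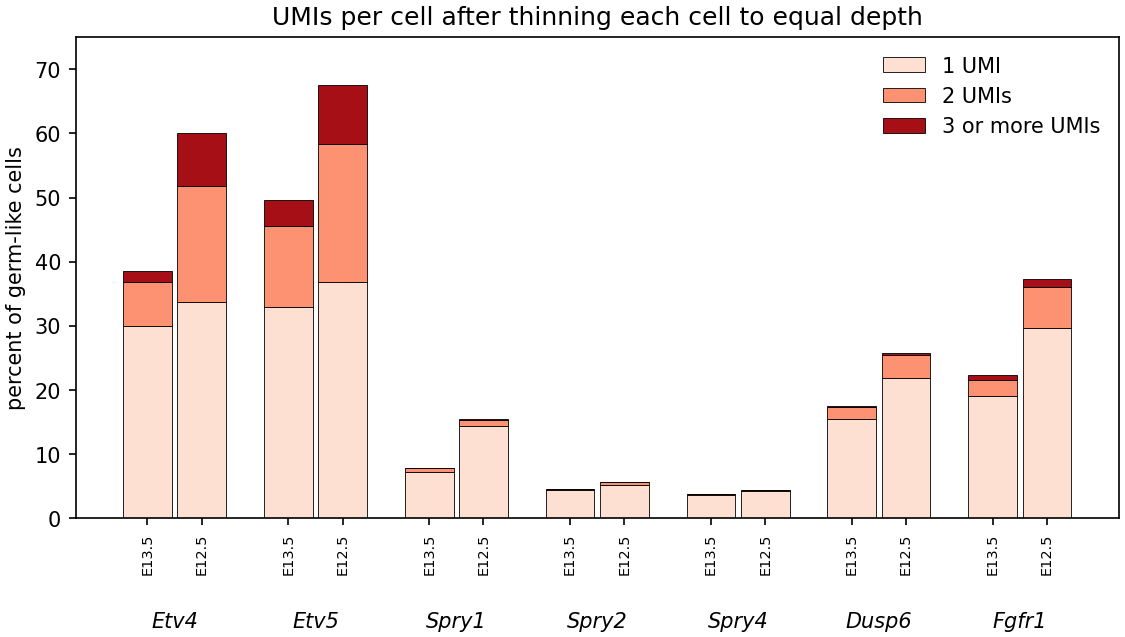
Percent of germ-like cells with 1, 2 or 3 or more UMIs of each gene after thinning to 14500 UMIs, with the E13.5 bar left of the E12.5 bar. For Etv4 the class of 3 or more held 1.68% of cells at E13.5 and 8.21% of cells at E12.5.

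Within a library the genes varied from cell to cell little more than counting alone would give. The ratio of variance to mean over thinned cells, which is 1 for counts from a uniform population, was between 1.03 and 1.17 at E13.5 and between 0.983 and 1.09 at E12.5. Its median over all genes at 10 CPM or more was 1.05 at E13.5 and 1.04 at E12.5. Fgfr1 had the highest value of the 7 at E13.5, 1.17, and a value of 1.0 at E12.5. Etv5 had 1.09 at E13.5 and 0.998 at E12.5. For Etv4, 61.4% of cells at E13.5 had no UMI, against 61.2% for a uniform population with the same mean, and at E12.5 these shares were 39.9% and 37.8%.

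Relations between the genes from cell to cell were weak. Over the 21 pairs, Spearman's rho across thinned cells had a median of 0.013 at E13.5 and 0.004 at E12.5, with no pair above 0.1 in either library. Of the pairs, 16 were above 0 at E13.5 and 11 at E12.5. The highest value was 0.070, between Etv4 and Etv5 at E13.5, where 95% of all genes lay below 0.053 with Etv4 and below 0.045 with Etv5. Because this pair was picked as the highest of the 21, these limits do not gauge it. At E12.5 the same pair had -0.019. Cells with both Etv4 and Etv5 numbered 480 at E13.5, against 444 for independent genes, and 931 at E12.5, against 942. Fgfr1 had a rho of -0.008 with Etv4, 0.010 with Etv5, 0.013 with Spry1 and -0.002 with Dusp6 at E13.5. At E12.5 these were -0.023, 0.004, -0.006 and -0.011. All cells of a library share its preparation, and such weak values in sparse counts are given as a description. Without thinning, where depth differs between cells, Etv4 and Etv5 had a rho of 0.154 at E13.5 and 0.135 at E12.5, and the medians over pairs were 0.034 at E13.5 and 0.043 at E12.5.

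**Figure D3:**
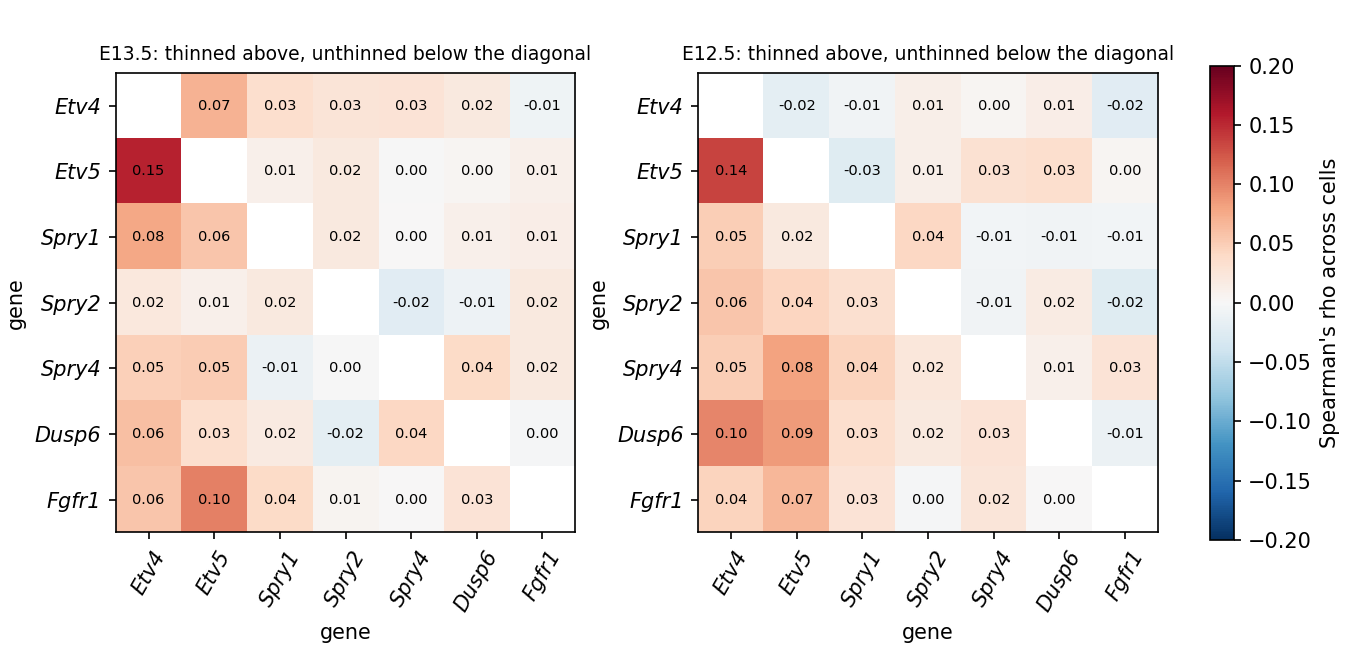
Spearman's rho between each pair of FGF response genes across germ-like cells of the E13.5 library (left) and the E12.5 library (right), with thinned cells above the diagonal and unthinned cells below it. Above the diagonal no value exceeds 0.070, and below it Etv4 with Etv5 is highest at both stages.

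The germ-like cells fell into clusters by stage, and at E13.5 the level of Fgfr1, Spry1 and Etv4 differed between them. Clusters were made from variable genes of these same cells, so the values are a description. At E13.5, cluster 2, whose leading gene was Nanos2, an RNA-binding protein of the male germ cell pathway, held 842 cells. Cluster 5 was led by histone genes of S phase (566 cells) and cluster 0 by Tuba3b and the synaptonemal complex gene Sycp1 (1126 cells). Fgfr1 had 11.2 CPM in cluster 2 (9.71 to 12.9), against 22.4 CPM in cluster 0 (20.7 to 24.3) and 22.8 CPM in cluster 5 (20.3 to 25.4). It was 2.0-fold lower in cluster 2 than in cluster 0 (1.70 to 2.36). Spry1 had 4.09 CPM in cluster 2, against 7.15 CPM in cluster 0 and 7.01 CPM in cluster 5. Etv4 had 26.7 CPM in cluster 2, against 35.1 CPM in cluster 0 and 39.9 CPM in cluster 5.

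The other members differed less or ran the other way. Etv5 had 46.6 CPM in cluster 2, against 52.3 CPM in cluster 0 and 47.0 CPM in cluster 5, and Dusp6 had 12.6 CPM in cluster 2, against 13.3 CPM in cluster 0 and 15 CPM in cluster 5. Spry2 was highest in cluster 2, with 4.67 CPM (3.71 to 5.80), against 3.02 CPM in cluster 0 (2.40 to 3.75) and 3.69 CPM in cluster 5 (2.74 to 4.85). Spry4 had 2.42 CPM in cluster 2, against 3.21 CPM in cluster 0 and 2.17 CPM in cluster 5, within counting error.

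At E12.5 the 3 large clusters were close, with the highest level at most 1.34-fold above the lowest for any member. Fgfr1, for one, ranged from 30.6 to 35.4 CPM. Each E13.5 cluster lay below every large E12.5 cluster for Etv4, whose highest E13.5 level was 39.9 CPM and lowest E12.5 level 62.1 CPM. The same held for Etv5 (52.3 CPM at E13.5 and 70.2 CPM at E12.5), Fgfr1 (22.8 and 30.6 CPM), Spry1 (7.15 and 10.7 CPM) and Dusp6 (15 and 17.2 CPM), and not for Spry2 (4.67 and 3.64 CPM) or Spry4 (3.21 and 3.15 CPM). For Dusp6 the counting intervals of these levels overlapped, with 13.1 to 17.2 CPM at E13.5 and 15.3 to 19.2 CPM at E12.5. The share of all genes whose clusters part by stage in this way was not computed, so this is not read as a trait of the members. A cluster of 30 cells at E12.5 led by p53 targets such as Plk2 and Phlda3 had 67.0 CPM of Etv4 (48.7 to 90) and 32.0 CPM of Fgfr1 (19.8 to 48.9).

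**Figure D4:**
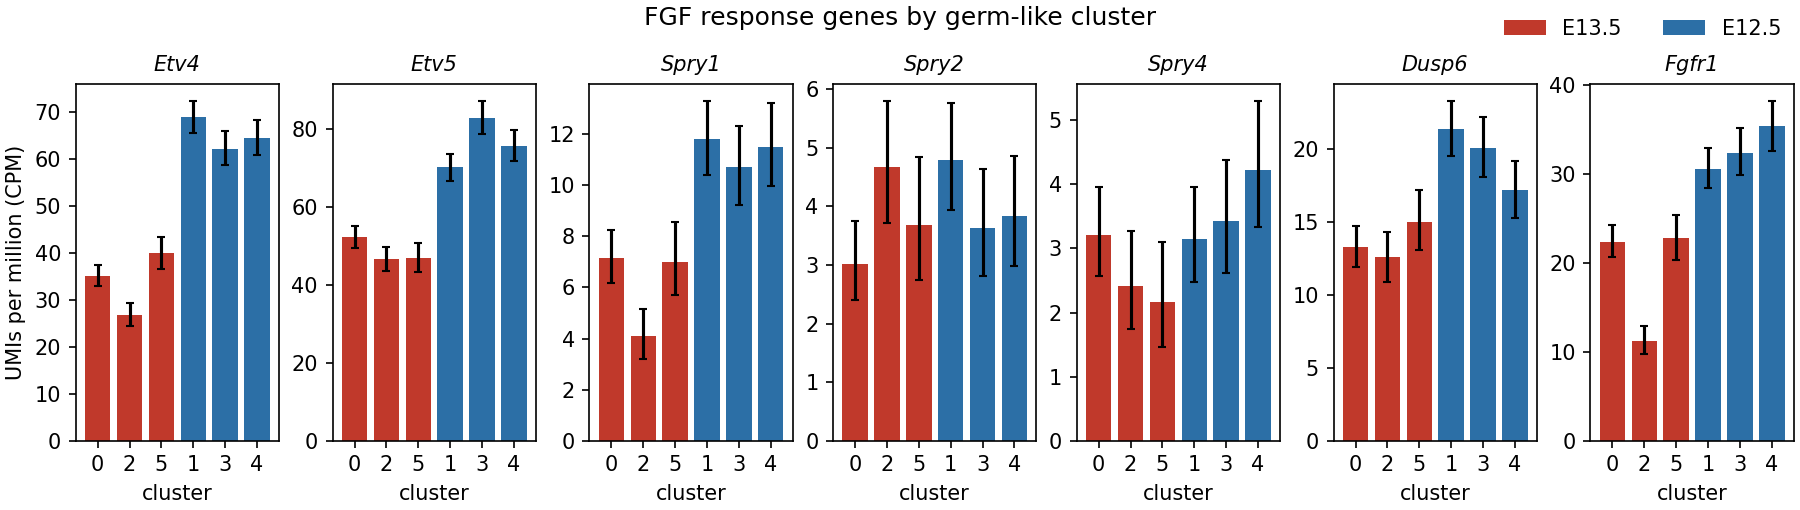
Level of each FGF response gene in CPM in the large germ-like clusters, with the E13.5 clusters 0, 2 and 5 left of the E12.5 clusters 1, 3 and 4; bars are exact Poisson 95% intervals. Fgfr1 in cluster 2 stands at 11.2 CPM, against 22.4 and 22.8 CPM in the other E13.5 clusters.

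A split by Nanos2 itself in thinned E13.5 cells gave the same order for the receptor. Nanos2 led cluster 2 among these same cells, so the split is not independent of the clusters. Fgfr1 had 13 CPM in the 628 cells with a Nanos2 UMI and 20.5 CPM in the 1695 without, 1.59-fold lower in cells with Nanos2 (ratio 0.631, 0.512 to 0.772). Etv4 had 27.0 CPM in cells with Nanos2 and 36.4 CPM in those without (ratio 0.742, 0.642 to 0.855), and Spry1 3.95 CPM with and 6.47 CPM without (ratio 0.611, 0.413 to 0.882). Etv5 had 44.3 CPM with and 51.2 CPM without (ratio 0.865, 0.771 to 0.968). The ratio was 1.02 for Dusp6 (0.823 to 1.26), 1.31 for Spry2 (0.868 to 1.96) and 0.887 for Spry4 (0.528 to 1.44), all with intervals that held 1. Lefty1 and Lefty2, Nodal antagonists that are themselves Nodal targets, both had a ratio of 0.443 in the same split, and Pou5f1 one of 0.994.

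Within ranges of the cell cycle scores the stage difference lay outside counting error for 5 of the 7 genes. The share of all genes with such a difference was not computed, so this count describes the members alone. At E13.5, 252 cells had G1-like, 647 S-like and 1424 G2M-like scores, and at E12.5 these were 4, 732 and 1590 cells, so that G1-like cells could not be compared. A G1-like range is one cut from scores and not a cell type, and 394 cells at E13.5 and 7 at E12.5 lay within 0.05 of its limit. In S-like cells Etv4 had 41.9 CPM at E13.5 and 66.1 CPM at E12.5, 1.58-fold lower at E13.5 (1.43 to 1.74), and in G2M-like cells 32.2 CPM at E13.5 and 66.1 CPM at E12.5, 2.06-fold lower (1.92 to 2.20). Fgfr1 had 21.7 CPM at E13.5 and 28.9 CPM at E12.5 in S-like cells, 1.34-fold lower (1.16 to 1.54), and was 1.70-fold lower in G2M-like cells (1.55 to 1.87). Etv5 was 1.38-fold lower in S-like cells (1.26 to 1.5), under the 1.5-fold limit, and 1.60-fold lower in G2M-like cells (1.5 to 1.69). Spry1 was 1.71-fold lower in S-like cells (1.33 to 2.22) and 1.73-fold lower in G2M-like cells (1.48 to 2.03). Dusp6 was 1.53-fold lower in S-like cells (1.29 to 1.82) and 1.42-fold lower in G2M-like cells (1.26 to 1.59). For Spry2 and Spry4 the intervals held 1 in both ranges, with 0.870 to 1.87 and 0.735 to 1.69 in S-like cells, and 0.965 to 1.58 and 0.935 to 1.57 in G2M-like cells. In the G1-like cells of E13.5, Etv4 stood at 22.0 CPM and Fgfr1 at 9.86 CPM, while Etv5 stood at 43.0 CPM and Dusp6 at 10.4 CPM.

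Genes whose counts followed the members were weak in likeness and differed between libraries. The measure was Spearman's rho, across thinned cells, with the mean log count over the 7 members, for 6400 other genes at 10 CPM or more in both libraries. At E13.5 the highest values were those of L1td1 (0.164), Dppa5a (0.156), Ckb (0.150), Rhox9 (0.147) and Lefty2 (0.145). L1td1 and Dppa5a are expressed in pluripotent cells and Rhox9 is a homeobox gene of early germ cells. The lowest were Sycp1 (-0.161), Brdt (-0.142), a bromodomain gene of the male germline, and Ifi27 (-0.135). In the E12.5 library these 8 genes lay between -0.035 and 0.038. The middle 95% of the 6400 genes lay between -0.063 and 0.080 at E13.5, and between -0.041 and 0.047 at E12.5.

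At E12.5 the highest were Utf1 (0.087), Slc25a4 (0.087), Stk17b (0.085), Incenp (0.081) and AI846148 (0.077), and the lowest Rpl26 (-0.087), Hnrnpul2 (-0.081) and Rpl10a (-0.072). Their E13.5 values ran from -0.132 for Rpl10a to 0.074 for Incenp. For single members at E13.5, genes among the nearest were Cox5a and Dppa5a for Etv4 (0.122 and 0.120) and Mrpl41, L1td1 and Ckb for Etv5 (0.126, 0.121 and 0.110). At E12.5 they were Cdc37l1 and Sub1 for Etv4 (0.078 and 0.077), Med17, Rabl2 and Smap1 for Etv5 (0.096, 0.084 and 0.075), and Proser2, Atp2b1 and Tomm22 for Fgfr1 (0.085, 0.076 and 0.074).

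Among genes of germ cell signalling and fate, Id3, a target of BMP signalling, had a rho of 0.132 with the member mean at E13.5, Lefty1 0.124, Kit 0.096 and Nodal 0.064, against -0.120 for Nanos2. At E12.5 these were -0.024 for Id3, -0.008 for Lefty1, 0.019 for Kit, -0.009 for Nodal and 0.017 for Nanos2. Id1, of the same family as Id3, had -0.019 at E13.5 and -0.028 at E12.5. Of transcripts that ERK can induce, Egr1 had 0.015 at E13.5 and -0.049 at E12.5, and Fos 0.027 at E13.5 and -0.027 at E12.5. Stra8, the gene that starts meiosis, had -0.002 at E13.5 and -0.069 at E12.5. Pou5f1 had 0.028 at E13.5 and -0.048 at E12.5, Nanog 0.049 at E13.5 and 0.003 at E12.5, and Pmaip1, which encodes the death protein Noxa, -0.027 at E13.5 and -0.003 at E12.5. Mki67, a marker of cycling cells, had 0.105 at E13.5 and 0.049 at E12.5, and the G2M score 0.114 at E13.5 and 0.061 at E12.5. The S score differed in sign between libraries, with 0.138 at E13.5 and -0.055 at E12.5.

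Upstream of the members, ligand transcripts were scarce in germ-like cells and receptor transcripts differed by type. None of the 22 genes of the FGF family that were looked up reached 10 CPM, and 8 of them were listed at neither stage. Fgf8 had 2.82 CPM at E13.5 and 3.67 CPM at E12.5. Chosen after their values were seen, Fgf5 had 0.444 CPM at E13.5 and 2.04 CPM at E12.5, and Fgf9, the Sertoli ligand, 29 UMIs at E13.5 and 10 at E12.5. Beside Fgfr1, Fgfr2 was the other receptor at 10 CPM, with 14.2 CPM at E13.5 and 11.0 CPM at E12.5, 1.29-fold higher at E13.5 (1.17 to 1.44), in contrast to Fgfr1. Fgfr3, also chosen after its values were seen, had 0.631 CPM at E13.5 and 2.23 CPM at E12.5, 3.53-fold lower at E13.5 (2.43 to 5.23).

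Genes for heparan sulphate, which helps FGFs to bind, for its carriers and for its sulphatases were split. Of 8 at 10 CPM or more, 3 were at least 1.5-fold lower at E13.5, 3 higher and 2 in between. Over all 7308 genes at that level, 9.91% were lower and 8.55% higher. The proteoglycan genes Sdc1 (4.63-fold, 4.13 to 5.21) and Sdc3 (4.18-fold, 3.49 to 5.03) and the sulphatase gene Sulf2 (2.87-fold, 2.55 to 3.23) were lower at E13.5. The sulphatase gene Sulf1 (3.84-fold, 3.26 to 4.55), the proteoglycan gene Sdc4 (3.07-fold, 2.99 to 3.16) and Ext1, a polymerase of heparan sulphate (1.78-fold, 1.57 to 2.01), were higher. Sdc4 stood at 378 CPM at E13.5 and 123 CPM at E12.5, and it alone of these lower or higher genes reached 10 CPM at both stages. The others reached that level only at the stage where they were higher, so the minimum level helped to make these counts. Sulf1 and Sulf2, and Sdc1 and Sdc4, are paralogs that went opposite ways.

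The signalling core differed little. All 11 RAS, RAF, MEK and ERK genes at 10 CPM or more lay within 1.5-fold, with a median log2 ratio of -0.28, and Map2k2, which encodes a MEK kinase, had 252 CPM at E13.5 and 262 CPM at E12.5. Of 6 adaptors, Plcg1, a phospholipase bound by the receptor, was at least 1.5-fold lower (19.3 CPM at E13.5 and 30.4 CPM at E12.5) and 5 lay in between. Ptpn11, which encodes the phosphatase SHP2, had 44.2 CPM at E13.5 and 44.7 CPM at E12.5.

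Among the other brakes on RAS and ERK, 4 of 13 were at least 1.5-fold lower at E13.5, 1 was higher and 8 lay in between. Over all 7308 genes, 9.91% were lower and 8.55% higher, and with so few brakes no pattern is read from the counts. The 4 lower ones were all phosphatases of MAP kinases: Dusp7 (1.93-fold, 1.71 to 2.17), Dusp5 (1.83-fold, 1.62 to 2.07), Dusp9 (1.82-fold, 1.72 to 1.91) and Dusp4 (1.61-fold, 1.52 to 1.72). Dusp9 had 38.1 CPM at E13.5 and 69.2 CPM at E12.5. Dusp1 of the same family, named after its value was seen, was 1.41-fold lower (1.31 to 1.51). Nf1, which turns RAS off, was 2.94-fold higher at E13.5 (2.54 to 3.41), and Rasa1, another GTPase activating protein, had 73.6 CPM at E13.5 and 62.8 CPM at E12.5. Dusp5, Dusp7 and Nf1 reached 10 CPM only at the stage where they were higher, so their entry into the counts rests on that stage. Spred1 and Spred2, relatives of the Sprouty genes, had 17.5 and 22.8 CPM at E13.5, against 18.3 and 22.4 CPM at E12.5.

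Other transcripts that ERK can induce were mixed. Of 6 at 10 CPM or more, 2 were at least 1.5-fold higher at E13.5, none was lower and 4 lay in between. Egr1, an immediate early transcription factor, was 2.13-fold higher (1.91 to 2.38) and Ccnd1, cyclin D1, 2.27-fold higher (1.96 to 2.62). Both reached 10 CPM only at E13.5, so their entry into the count rests on the stage where they were higher. Etv1, the third gene of the subfamily of Etv4 and Etv5, was 1.49-fold lower (1.40 to 1.58), and Ier2, an immediate early gene, had 56.4 CPM at E13.5 and 76.5 CPM at E12.5. Over all lists together, 8 of 45 genes were at least 1.5-fold lower, beside 9.91% of all 7308 genes, and 6 were higher, beside 8.55%. Their median log2 ratio was -0.16, and that of all genes -0.022. With so few genes in each list, nothing particular to a list is read from its counts.

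**Figure D5:**
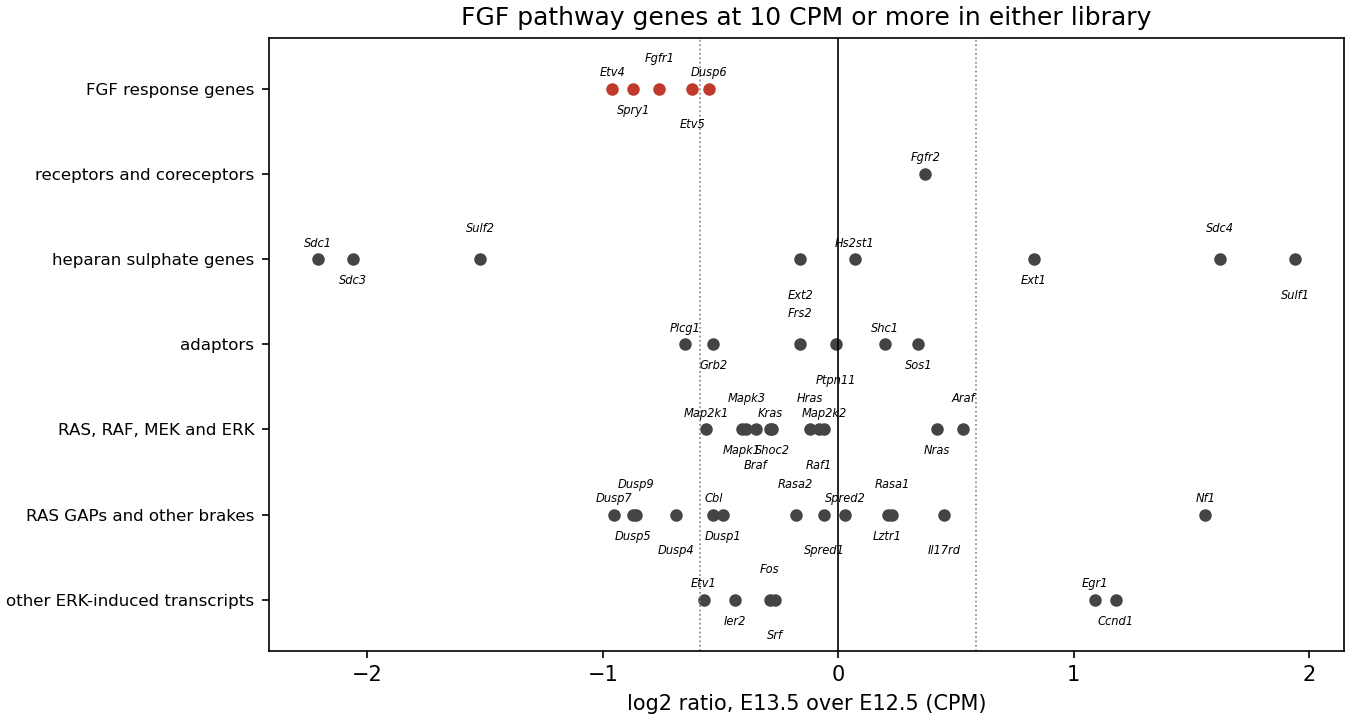
Ratio of E13.5 to E12.5 on a log2 axis for FGF pathway genes that reached 10 CPM in at least 1 library, by role, with the FGF response genes in red; dotted lines mark 1.5-fold. The FGF response genes lie between -0.96 and -0.55, and the RAS, RAF, MEK and ERK genes lie between the dotted lines.

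Barcodes outside the germ-like class differed in which members they carried. In 25 Sertoli-like barcodes at E13.5, with a median of 10797 UMIs, Dusp6 had 18 UMIs or 61.4 CPM, 4.55-fold above germ-like cells (2.68 to 7.23). Fgfr1 had 2 UMIs there, or 6.82 CPM (0.827 to 24.7), and Etv5 44.4 CPM, close to the 49.4 CPM of germ-like cells. Spry2 stood out in the unnamed cluster of low depth. It had 10 UMIs in 92 barcodes at E13.5 and 12 UMIs in 114 barcodes at E12.5, which was 8.88-fold (4.20 to 16.7) above germ-like cells at E13.5 and 9.16-fold (4.67 to 16.3) at E12.5. Etv4 in that cluster was at 0.961 of the germ-like level at E13.5 (0.460 to 1.77) and 0.916 at E12.5 (0.551 to 1.43).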

How the data were processed

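Per the labels' protocols, cells positive for an Oct4 reporter were sorted and made into 10x v2 libraries. The authors deposited raw UMI counts per gene and barcode, 1 table a stage, and the submitters' processing notes name Cell Ranger, mm10 and GRCm38; the gene annotation is not stated there. Every listed gene was present in 3 or more barcodes and every barcode had 201 or more genes.

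A barcode needed 500 genes and a mitochondrial share below 10% (2670 passed at E13.5, 2621 at E12.5). Both libraries were scaled to 10000 UMIs a barcode, log-transformed and clustered in scanpy 1.11.5 with leidenalg 0.10.2 (2000 variable genes, 30 components, 15 neighbours, resolution 0.5). Clusters were named from marker lists, and barcodes of germ-like clusters with 0.5% or more red cell or macrophage marker UMIs were left out. A cluster of low depth stayed unnamed. Scrublet called 30 kept barcodes at E13.5 and 71 at E12.5, which were kept in the main analysis.

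Counts were summed per library over germ-like cells (58607152 UMIs at E13.5, 59716967 at E12.5) and given as CPM. Levels have exact Poisson, shares exact binomial and ratios exact conditional binomial 95% intervals, checked on simulated counts. UMIs of 1 library are not independent samples, so intervals cover counting error alone. Thinning was without replacement to 14500 UMIs, near the depth that 10% of cells of the shallower library fall below. Cell cycle scores were scanpy's. Positions are from GENCODE (GRCm38). TMM factors were from edgeR 4.0.16. Members, lists and thresholds were chosen with earlier results of these data known. Named were all 7 members, the gene with the most UMIs of each role list, up to 3 genes at each end of it that were at least 1.5-fold apart, fixed partner genes and the genes with the highest and lowest rho. Other genes were named after their values were seen, and 1 gene that the rule names is not reported here.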

Additional observations from a re-analysis of the deposited data

How the results depend on the processing

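All 7 log2 ratios stayed below 0 under the 9 other scalings, filters and cell sets tried, and 61 of 63 such values lay within the counting interval of the main one. The exceptions came from giving S-like and G2M-like cells equal weight, chosen after seeing the data, with -0.84 for Etv4 and -0.60 for Fgfr1. There the median over members was -0.60, and 3 members, without Etv5, were at least 1.5-fold lower, as with the smaller total that leaves out abundant genes. With no minimum level that median was -0.62, and 20 pathway genes were at least 1.5-fold lower and 16 higher, against 8 and 6; more genes enter that count by construction. Equal weight over 3 cell cycle ranges was not run, as 4 cells at E12.5 were G1-like. Leaving out the 24 shared barcode sequences, also chosen after seeing the data, changed no call. Without thinning 1 pair of members had a rho over 0.1 at E13.5 and 1 at E12.5, against 0 in thinned cells, and unthinned depth differs between cells. All 28 shares at another depth lay outside the main interval. All 7 members had the lower share at E13.5 without thinning, and 6 did at 5000 UMIs, where Spry2 turned direction, with 1.77% of cells at E13.5 and 1.53% at E12.5. No paired analysis was possible because each stage has 1 library and the labels number none. Depth limits Spry2 and Spry4, which stood under 5 CPM, and the relations between cells.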
